A study of Saccharomyces cerevisiae with 8 samples.

Results

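A group of 10 genes for making and remodelling the glucan and chitin of the yeast cell wall was followed in 8 cultures of Saccharomyces cerevisiae, on 1 single-colour array per culture. The genes were taken from a list of names and found on the arrays by locus tag: FKS1 (YLR342W), GSC2 (YGR032W, also called FKS2), GAS1 (YMR307W), GAS3 (YMR215W), GAS5 (YOL030W), CHS1 (YNL192W), CHS2 (YBR038W), CHS3 (YBR023C), CRH1 (YGR189C) and BGL2 (YGR282C). All 10 were found among the 6225 features with a name of their own, each by 1 probe printed as 2 spots, and all 10 were tested among 5393 genes. The cultures formed 4 groups of 2 biological replicates: wild type (WT) and a strain with HTZ1 deleted (htz1D), each left unstressed or kept for 20 minutes in medium brought to 0.4 M NaCl. Both strains carry the strain name BY4147 in the labels and were grown in YPD medium to an optical density (OD) of 1 before harvest or salt. The deletion is the only stated difference between them, and the marker used for it and the number of independent clones are not given in the sources used here. HTZ1 encodes a histone variant found in nucleosomes beside promoters, and the comparisons bear on transcript levels under hyperosmotic stress with and without it.

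The yeast wall is a mesh of glucan chains with a small amount of chitin and an outer layer of mannoproteins. Its main glucan is spun out through the plasma membrane by a synthase whose catalytic subunit is Fks1 or its paralog Gsc2, switched on by the small GTPase Rho1. Enzymes of the Gas family and Bgl2, held at the cell surface, then cut and rejoin the chains. Chitin is made by Chs2 in the primary septum, by Chs1 during repair after the cells separate and by Chs3 in the bud-neck ring and the lateral wall, and Crh1 joins chitin to glucan. Salt draws water from the cell and activates the Hog1 kinase, and wall stress activates a separate kinase cascade that starts at Rho1 and ends at Slt2.

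Values are given as multiples of the 75th percentile of signal on the same array, and changes as log2 differences with limma's standard error (SE). A gene was called changed if its Benjamini-Hochberg adjusted p over all 5393 genes was under 0.05. The arrays matched their strain labels, since HTZ1 (YOL012C) lay between 1.97 and 2.54 on the 4 WT arrays and between 0.00456 and 0.00823 on the 4 htz1D arrays, where it was not well above background. Of the mating type markers, 5 of 5 a-type genes and 0 of 3 alpha-type genes were well above background on all 8 arrays. The 75th percentile itself lay between 2740 and 4290 intensity units. All 10 wall genes were well above background on all 8 arrays. In 38 of 40 cases (10 genes in 4 groups) the array of replicate 2 read higher than that of replicate 1 (95%, against 45.8% over all genes tested), and for 8 of the 10 genes it did so in every group (80%, against 17.4%). What the replicate number stands for is not stated, and a fit with that number as a block is given with the alternatives.

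**Figure D1:**
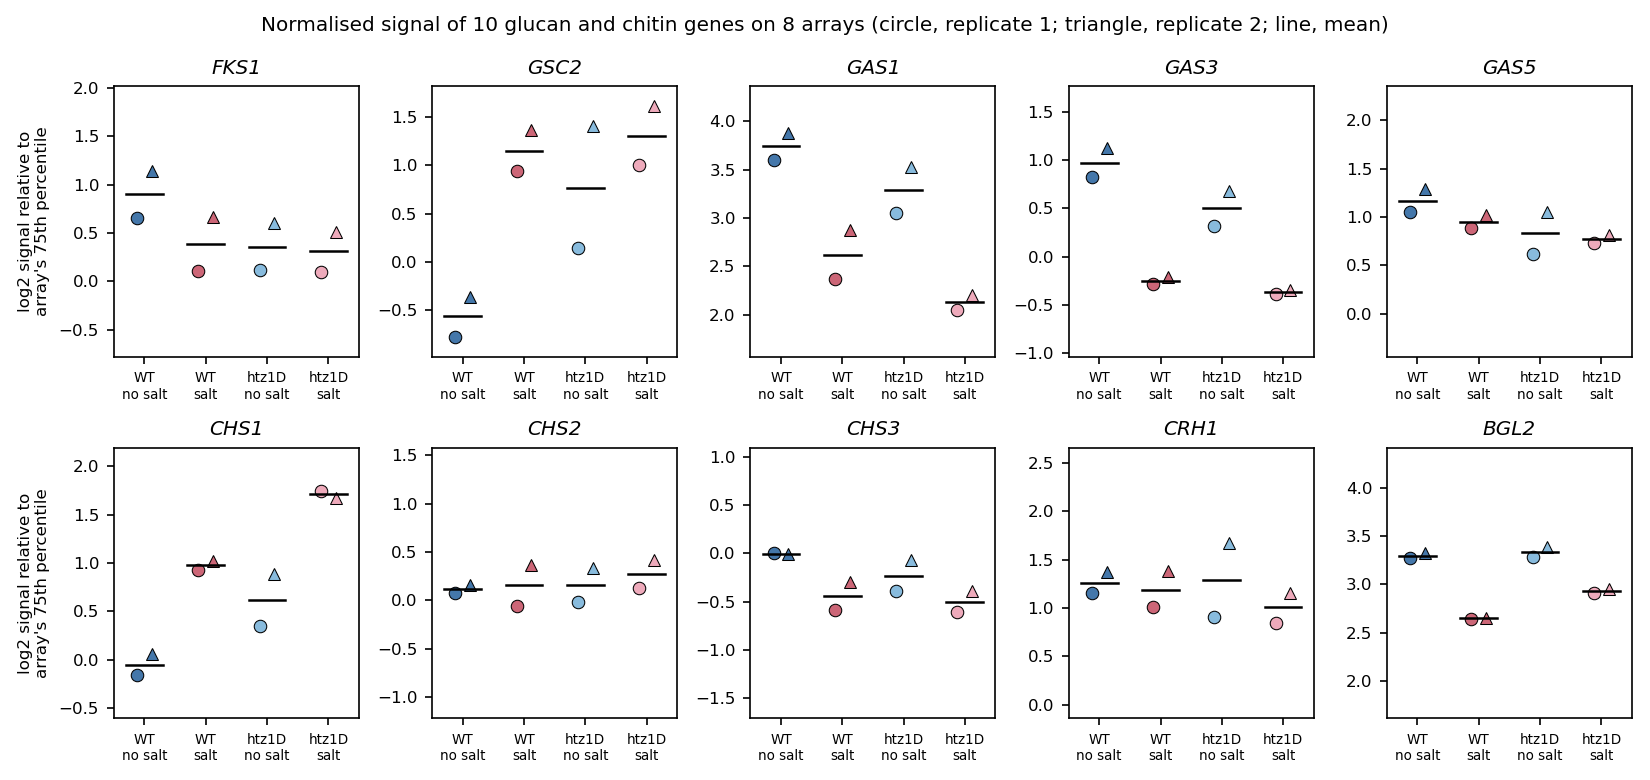
Log2 signal relative to the array's 75th percentile (vertical axis; every panel spans the same range of log2 units) for each of the 10 genes in the 4 groups, with replicate 1 as a circle, replicate 2 as a triangle and the mean of 2 as a line. GSC2 and CHS1 stand lowest in wild type without salt, GAS1 and GAS3 stand lower on all salt arrays than on any array without salt, and CHS2 stays within a narrow band.

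Salt changed 6 of the 10 genes in wild type, 2 upward and 4 downward, by limma. Over all genes tested, 56.9% were called in that comparison, 31.2% higher and 25.7% lower, so a count of 6 in 10 is close to the background. The genes that rose were GSC2 and CHS1, the alternative glucan synthase and the repair chitin synthase. Those that fell were GAS1, GAS3, BGL2 and CHS3. The median log2 change of the 10 genes was -0.32, against 0.07 over all genes tested. In htz1D salt changed 4 of the 10, CHS1 upward and GAS1, GAS3 and BGL2 downward, against a background of 58.4% called (29.3% higher and 29.1% lower). The median there was -0.17, against 0.01 over all genes. RNA was taken from whole cultures, so a change in RNA per cell and a change in the share of cells that hold the transcript cannot be told apart.

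**Figure D2:**
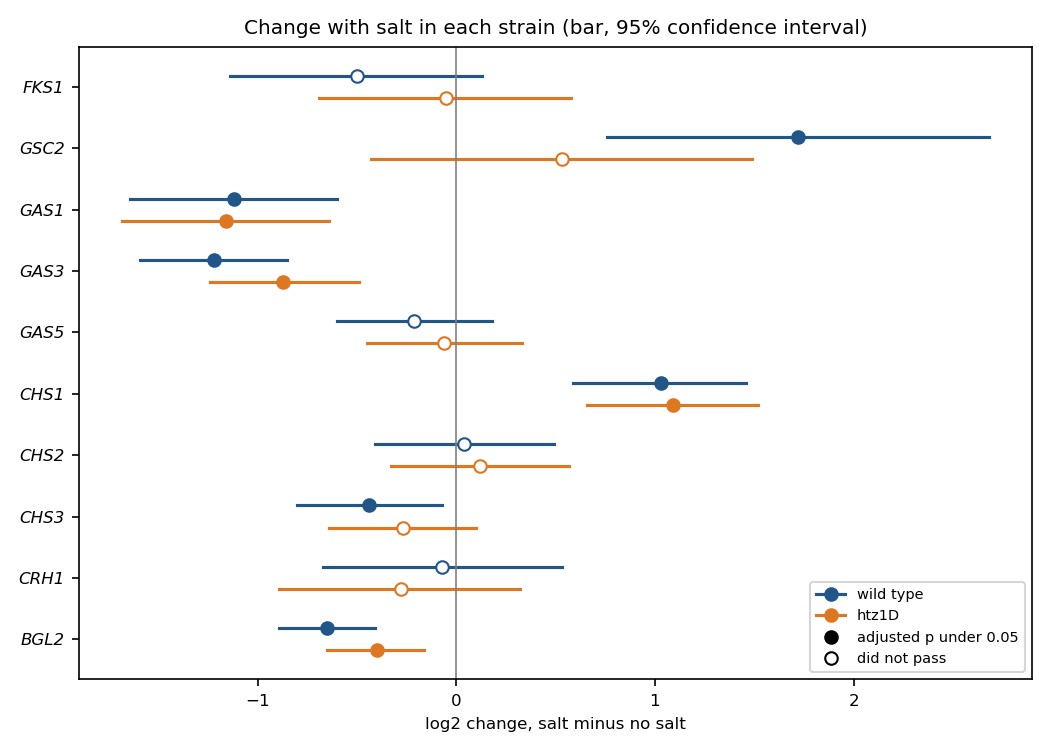
Log2 change with salt (horizontal axis, salt minus no salt) for each gene in wild type (blue) and htz1D (orange), with limma's 95% confidence interval as a bar. Filled circles passed at an adjusted p under 0.05. The intervals of the strains overlap for all 10 genes, with GSC2 furthest apart at 1.72 and 0.53.

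The glucan synthase paralogs differed in their values under salt. GSC2 read 0.588 and 0.778 in the wild-type cultures without salt and 1.92 and 2.58 with salt. Both salt arrays lay above both unstressed arrays. The rise was 3.29-fold (log2 1.72, SE 0.41, 95% confidence interval 0.76 to 2.68, limma adjusted p = 0.0091), and 10.1% of all tested genes had a larger change in either direction. In htz1D, GSC2 read 1.10 and 2.65 without salt and 2.00 and 3.05 with salt. The unstressed replicates lay far apart (SD 0.90 on the log2 scale, the widest among these 10 genes in any group), and the groups overlap. The change of 0.53 (SE 0.41, interval -0.43 to 1.49, limma adjusted p = 0.300) did not pass. The result rests on single arrays. Without WT unstressed replicate 1 the wild-type change was 1.52 (adjusted p = 0.0508), and without htz1D unstressed replicate 2 the htz1D change was 1.17 and passed (adjusted p = 0.0202).

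FKS1, the synthase subunit used in growing cells, read 1.58 and 2.20 in unstressed wild type and 1.08 and 1.59 with salt. These groups touch, since the higher salt array lies just above the lower unstressed one. Its change of -0.50 (SE 0.27, interval -1.14 to 0.13, limma adjusted p = 0.150) did not pass. In htz1D the values were 1.08 and 1.52 without salt and 1.07 and 1.42 with salt, so the ranges nearly coincided (-0.05, SE 0.27, interval -0.69 to 0.58, limma adjusted p = 0.881). FKS1 and GSC2 are related in sequence. Whether their probes share signal was not tested, and only differences within a probe are given here. The third paralog, FKS3, was not well above background on any array and was not tested.

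Of the chain-remodelling enzymes, GAS1, GAS3 and BGL2 fell in both strains. GAS1, the founding glucanosyltransferase of the family, read 12.1 and 14.7 in unstressed wild type and 5.16 and 7.34 with salt. It fell 2.17-fold (log2 -1.12, SE 0.22, limma adjusted p = 0.00405). In htz1D it went from 8.29 and 11.5 to 4.13 and 4.61, a fall of 2.24-fold (-1.16, SE 0.22, limma adjusted p = 0.00317). The salt and unstressed arrays did not overlap in either strain.

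GAS3 had the larger wild-type change of the pair. Its values were 1.77 and 2.18 without salt and 0.821 and 0.862 with salt, so the salt replicates nearly coincided. The fall was 2.33-fold (-1.22, SE 0.16, limma adjusted p = 0.000495). In htz1D GAS3 read 1.25 and 1.60 without salt and 0.763 and 0.789 with salt. That fall was 1.82-fold (-0.87, SE 0.16, limma adjusted p = 0.00254), from a lower starting value to nearly the same end value as in wild type.

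GAS5, another family member, stayed closer to its starting level. It read 2.07 and 2.44 without salt and 1.85 and 2.03 with salt in wild type (-0.21, SE 0.17, interval -0.60 to 0.18, limma adjusted p = 0.307). In htz1D it read 1.53 and 2.07, then 1.65 and 1.76 (-0.06, SE 0.17, interval -0.45 to 0.33). Neither change passed. The intervals exclude a GAS5 fall as large as the point estimates of GAS1 or GAS3 in the same strain.

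BGL2, a glucanosyltransferase of the wall, had closely matching replicates, with an SD between 0.01 and 0.08 (log2) in the 4 groups. In wild type it read 9.65 and 9.96 without salt and 6.23 and 6.29 with salt, and fell 1.57-fold (-0.65, SE 0.10, limma adjusted p = 0.0014). In htz1D it read 9.69 and 10.5, then 7.49 and 7.74, and fell 1.32-fold (-0.40, SE 0.10, limma adjusted p = 0.0118). The second call depends on the scaling. The htz1D change was -0.21 after quantile normalization (adjusted p = 0.170), -0.22 in the authors' deposited values (adjusted p = 0.114) and -0.38 without htz1D salt replicate 1 (adjusted p = 0.0672). The wild-type change passed under every alternative, at -0.36 to -0.65 other than when an array was left out.

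The chitin synthases went in different directions. CHS1 rose in both strains. It read 0.896 and 1.04 in unstressed wild type and 1.90 and 2.03 with salt, a rise of 2.04-fold (1.03, SE 0.18, limma adjusted p = 0.0025). In htz1D it read 1.27 and 1.86 without salt and 3.37 and 3.19 with salt, a rise of 2.13-fold (1.09, SE 0.18, limma adjusted p = 0.00171). Both htz1D salt arrays lay above every other array. The CHS1 salt call held in both strains under all alternatives, although in htz1D the change ranged from 0.82 to 1.36 as single arrays were left out.

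CHS2, the septum enzyme, is transcribed around mitosis. It read 1.06 and 1.12 in unstressed wild type and 0.958 and 1.30 with salt, and in htz1D 0.989 and 1.26, then 1.09 and 1.34. All groups overlap. The changes of 0.04 (SE 0.19, interval -0.41 to 0.49) and 0.12 (SE 0.19, interval -0.33 to 0.57) did not pass (limma adjusted p = 0.880 and 0.629). Of 13 mitotic genes, 4 fell and 0 rose in wild type, close to the 25.7% of all genes that fell. Among them were the cyclin gene CLB2 (-0.86, SE 0.19), the bud-neck gene BUD4 (-0.80, SE 0.19) and the anaphase activator CDC20 (-0.76, SE 0.14). The CLB2 (-0.74) and CDC20 (-0.60) calls were lost under normexp. That of BUD4 was lost without WT unstressed replicate 2 (-0.71) or WT salt replicate 1 (-0.58). Over all alternatives except the replicate block, 1 to 7 of the mitotic genes fell in wild type. The median of the 13 was -0.38. In htz1D 5 fell and 1 rose (median -0.24), against 29.1% of all genes lower and 29.3% higher (median 0.01). Over the same alternatives, 3 to 6 of the mitotic genes fell in htz1D.

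CHS3 makes most of the chitin of the wall. It read 0.999 and 0.991 in unstressed wild type and 0.668 and 0.810 with salt. The groups do not overlap, and the fall of 1.35-fold (-0.44, SE 0.16) passed narrowly (limma adjusted p = 0.0468). In htz1D it read 0.762 and 0.950, then 0.657 and 0.761 (-0.27, SE 0.16, interval -0.64 to 0.10, limma adjusted p = 0.181). The wild-type call was lost under normexp background correction (-0.39, adjusted p = 0.118), with no filter on dim probes (adjusted p = 0.0684) and without any 1 of 5 arrays: both WT unstressed arrays, WT salt replicate 1 (-0.30, adjusted p = 0.237) and both htz1D salt arrays.

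CRH1, the enzyme that joins chitin to glucan, did not pass in either strain. It read 2.24 and 2.58 without salt and 2.02 and 2.59 with salt in wild type (-0.07, SE 0.26, interval -0.67 to 0.53, limma adjusted p = 0.831). In htz1D it read 1.88 and 3.18, then 1.81 and 2.24 (-0.28, SE 0.26, interval -0.89 to 0.32, limma adjusted p = 0.378). Without htz1D unstressed replicate 1, the lower of the unstressed pair, the htz1D change was -0.66 and passed (adjusted p = 0.0394). Its paralog UTR2 fell in both strains, by 1.85-fold in wild type (-0.89, SE 0.21, limma adjusted p = 0.00821) and 2.31-fold in htz1D (-1.21, SE 0.21, limma adjusted p = 0.00188). The UTR2 call in wild type was lost after quantile normalization (-0.58) and without WT unstressed replicate 2 (-0.76) or WT salt replicate 1 (-0.71). The spore-wall paralog CRR1 fell by less (-0.32 and -0.59, SE 0.10 each). Its call in wild type was lost under normexp (-0.31) and without any 1 of the WT arrays or htz1D salt arrays (-0.27 to -0.37).

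Loss of HTZ1 alone was compared in unstressed cultures. None of the 10 genes passed by limma, 0 of 10 against a background of 13.7% (7.36% higher and 6.32% lower). An unadjusted p under 0.05 was found for 3 of the 10, close to the 31.2% of all genes tested. The 3 were CHS1 (0.67, SE 0.18, limma adjusted p = 0.0529), GSC2 (1.34, SE 0.41, limma adjusted p = 0.0726) and GAS3 (-0.47, SE 0.16, limma adjusted p = 0.0894). The htz1D and WT arrays did not overlap for any of these 3, nor for FKS1, GAS1 and CHS3. The share of all genes without overlap was not counted, so the gap does not set these genes apart. For GSC2 the lower htz1D array (1.10) lay above the higher WT array (0.778), and 2.37% of tested genes had a larger difference in either direction. Without htz1D unstressed replicate 1, the difference was 1.97 for GSC2 (adjusted p = 0.0187) and 0.94 for CHS1 (adjusted p = 0.0153), and both passed. Without replicate 2 of that group, GAS3 passed (-0.66, adjusted p = 0.0490). CHS1 also passed in the authors' deposited values (0.62, adjusted p = 0.0340) and among genes well above background on all arrays (adjusted p = 0.0395). With the replicate number as a block, 5 of the 10 were called: CHS1, GSC2, GAS3, FKS1 and GAS1. That fit called more genes in all, 1395 of 5393 (700 higher and 695 lower). The remaining 7 genes had differences between -0.54 (FKS1, SE 0.27) and 0.04 (CHS2, SE 0.19, and BGL2, SE 0.10).

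**Figure D3:**
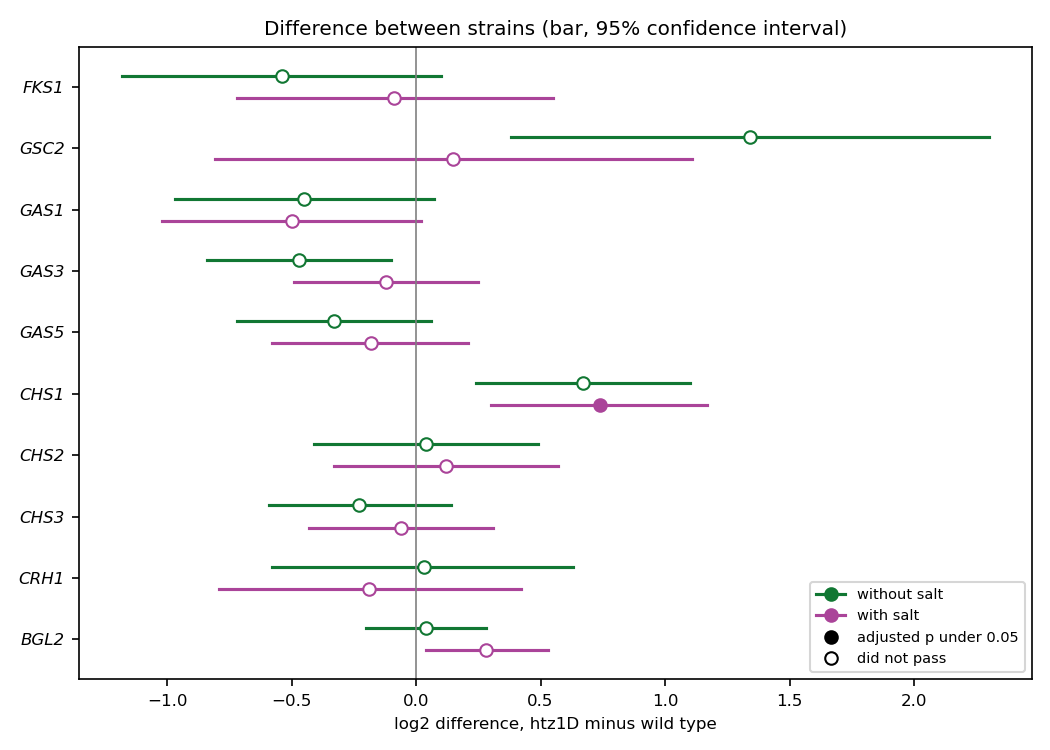
Log2 difference between strains (horizontal axis, htz1D minus wild type) for each gene without salt (green) and with salt (purple), with limma's 95% confidence interval as a bar. Of the 20 values only CHS1 with salt (0.74) is filled, and the GSC2 difference of 1.34 without salt has the widest distance from 0.

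With salt, 1 of the 10 genes differed between the strains by limma, against 21.9% of all genes (5.77% higher and 16.2% lower). CHS1 was 1.67-fold higher in htz1D (0.74, SE 0.18, limma adjusted p = 0.0291), at 3.37 and 3.19 against 1.90 and 2.03. This call was lost under normexp (0.74, adjusted p = 0.061), after quantile normalization (0.64, adjusted p = 0.0564) and without any 1 of the 4 salt arrays (0.69 to 0.78). The size of the difference moved little among these. GSC2, at 2.00 and 3.05 against 1.92 and 2.58, was close to equal between the strains (0.15, SE 0.41, interval -0.81 to 1.11), but the interval is wide. GAS1 was lower in htz1D by 0.50 (SE 0.22, limma adjusted p = 0.156) and BGL2 higher by 0.28 (SE 0.10, limma adjusted p = 0.0915), and neither passed.

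The order of the groups by mean differed from gene to gene. CHS1 rose from unstressed WT through unstressed htz1D and salt-treated WT to salt-treated htz1D. GAS1 ran from unstressed WT, the highest, through unstressed htz1D and salt-treated WT to salt-treated htz1D, the lowest, and GAS3 had the same order. For GAS3 the salt-treated groups at the bottom did not differ beyond the error of the fit (-0.12, SE 0.16). For GSC2, all groups but unstressed WT had means between 1.71 and 2.47, and the range of unstressed htz1D (1.10 to 2.65) holds all but 1 of the 4 salt arrays. For CHS1 the neighbours in the middle of its order, unstressed htz1D and salt-treated WT, lay close together (means 1.54 and 1.97, SD 0.39 on the log2 scale in the former). That pair was not tested for either gene.

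Whether the salt response itself differed between the strains was tested as an interaction. No gene of the 10 passed by limma, against a background of 1.00% of all genes (0.111% higher and 0.890% lower). At an unadjusted p under 0.05 there were 0 of 10 as well, against 12.1% of all genes. GSC2 had the largest value, a response smaller by 1.19 in htz1D (SE 0.58, interval -2.54 to 0.17, limma adjusted p = 0.494). It ranged from -0.55 to -1.82 as single arrays were left out. For CHS1 the interaction was 0.07 (SE 0.26, interval -0.54 to 0.68) and for GAS1 -0.04 (SE 0.31, interval -0.78 to 0.69). The passing of GSC2 and CHS3 in wild type only is therefore no test of a difference between strains.

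The other genes of these pathways were counted by lists, to be read against the shares over all genes, 31.2% higher and 25.7% lower with salt in wild type and 29.3% and 29.1% in htz1D. Of 10 tested genes for the glucan synthase and its regulators (the list includes FKS1 and GSC2), 5 rose and 1 fell in wild type, and 4 rose in htz1D, with medians of 0.29 and 0.23 (0.07 and 0.01 over all genes). ROM1, an exchange factor that activates Rho1, rose 3.06-fold in wild type (1.61, SE 0.20, limma adjusted p = 0.000374) and 6.37-fold in htz1D (2.67, SE 0.20, limma adjusted p = 2.56e-05). Its paralog ROM2 rose by 0.68 and 0.91 (SE 0.15 each) and the exchange factor TUS1 by 0.56 and 0.62 (SE 0.12 each). ROM1 was also higher in htz1D than in wild type with salt (0.77, SE 0.20, limma adjusted p = 0.031), while its interaction of 1.06 (SE 0.28) did not pass (limma adjusted p = 0.162). The ROM1 difference between strains lost its call under normexp (0.72), with no filter on dim probes, and without any 1 of 5 arrays: both WT unstressed arrays, WT salt replicate 2 (0.60) and both htz1D salt arrays (0.74 and 0.80).

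Of 11 tested genes for the branching glucan of the wall (beta-1,6-glucan), 6 rose and 0 fell in wild type (median 0.49), and 7 rose and 0 fell in htz1D (median 0.48), against 31.2% and 29.3% of all genes higher. SKN1, a paralog of the synthesis gene KRE6, rose by 0.90 in wild type and 1.48 in htz1D (SE 0.13 each, limma adjusted p = 0.000823 and 6.01e-05). KEG1 (0.70, SE 0.11) and BIG1 (0.66, SE 0.10), both of the endoplasmic reticulum, rose in wild type and were also called higher in htz1D. KRE6 was called in htz1D (0.74, SE 0.21) and not in wild type (0.51, SE 0.21, limma adjusted p = 0.071). SKN1 lost its call under normexp in both strains (0.75 and 0.77). Under normexp BIG1 lost its wild-type call (0.55) and turned to -0.05 in htz1D, and KEG1 lost its htz1D call (0.24). The KRE6 call was lost without htz1D unstressed replicate 1 (0.47) or htz1D salt replicate 2 (0.64).

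The glucanosyltransferase list holds GAS1, GAS3, GAS5 and BGL2 with 4 other tested genes. In wild type 6 of 8 fell and 0 rose (median -0.71). In htz1D 4 fell and 1, GAS2, was called higher (median -0.54). With only genes well above background on all arrays, which leaves GAS2 out, 5 of 7 fell and 0 rose in htz1D. The relatives of BGL2 were at -0.53 (SCW4, SE 0.15), -0.76 (SCW10, SE 0.25) and -1.01 (SCW11, SE 0.26) in wild type, all called. Each of these calls was lost without WT unstressed replicate 2 or WT salt replicate 1, and those of SCW4 (-0.20) and SCW10 (-0.68) also after quantile normalization. In htz1D SCW10 fell as well (-1.06, SE 0.25), and SCW11 did not pass (-0.68, SE 0.26). The sporulation gene GAS2 was well above background on the 2 htz1D salt arrays, on 1 of 2 WT salt arrays and on none without salt. It was tested only because it cleared background on both htz1D salt arrays. Its rise in htz1D was at least 1.01-fold, and it turned to -0.46 under normexp. GAS4 was not tested. Of 9 glucanase and SUN family genes, 4 fell in wild type, led by SUN4 (-1.89, SE 0.19), DSE4 (-1.36, SE 0.32) and EXG1 (-0.93, SE 0.30), and 3 fell and 1 rose in htz1D, with SUN4 at -1.30 (SE 0.19). The medians were -0.40 and -0.54. Several of these enzymes act in cell separation. The EXG1 call in wild type was lost after quantile normalization, with no filter and without either WT unstressed array or WT salt replicate 1 (-0.59), and that of DSE4 without WT unstressed replicate 2.

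The chitin synthases and the proteins that fold or carry Chs3 made up a list of 11. In wild type 5 rose and 3 fell (median 0.29), and in htz1D 3 rose and 2 fell (median 0.25). CHS5 (0.61, SE 0.16) and CHS6 (0.68, SE 0.13), genes for proteins that carry Chs3, rose in wild type. CHS7, needed for export of Chs3 from the endoplasmic reticulum, fell (-0.35, SE 0.11), as did SKT5, an activator of Chs3 (-0.70, SE 0.19). All 3 falls of this list in wild type and the CHS5 rise were lost when WT unstressed replicate 1, WT unstressed replicate 2 or WT salt replicate 1 was left out, and the CHS6 rise under normexp (0.55, adjusted p = 0.153). Of 4 genes for the chitin precursor, only PCM1, a phosphoacetylglucosamine mutase, was called. It fell in htz1D with salt (-0.69, SE 0.14) and was lower in htz1D than in wild type without salt by 0.80 and with salt by 1.11 (SE 0.14 each, limma adjusted p = 0.0119 and 0.00246). Its wild-type change of -0.37 passed narrowly (limma adjusted p = 0.0495). That call was lost under normexp, after quantile normalization, with no filter on dim probes and with only the arrays compared. It was also lost when any 1 of 6 arrays was left out (-0.25 to -0.50 over all arrays left out). The PCM1 difference between strains without salt lost its call under normexp (-0.71) and without WT unstressed replicate 1 (-0.67). The chitin deacetylase genes CDA1 and CDA2, which act in spore walls, stayed at background on all 8 arrays and were not tested.

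Of 17 tested genes of the cell wall integrity pathway, 9 rose and 0 fell in wild type (median 0.43), and 7 rose and 2 fell in htz1D (median 0.32), against 31.2% and 29.3% of all genes higher. The phosphatase genes SDP1 and PTP2 rose by 2.38 (SE 0.23) and 1.29 (SE 0.18) in wild type, and by 2.43 and 0.96 in htz1D. SDP1 was well above background on 1 of the 2 unstressed WT arrays. KDX1, a kinase gene regulated by the pathway, was too dim to measure on the unstressed arrays, and was tested only because it cleared background with salt. Its rise in wild type was at least 1.97-fold in the scaling used here, and under normexp it did not pass (0.69, adjusted p = 0.268). Of 10 genes of the calcineurin pathway and its targets, to which GSC2 is known to respond, 3 rose in wild type and 4 in htz1D (medians 0.25 and 0.02), near the shares of all genes (31.2% and 29.3%). Those that rose in both strains were the sodium pump gene ENA1 (2.45 and 2.77, SE 0.18 each), whose near copies may share its probe signal, the calcium pump gene PMC1 (2.10 and 1.73, SE 0.23 each) and the calcineurin subunit gene CMP2 (1.13 and 1.03, SE 0.11 each). Without salt, 7.36% of all genes were higher in htz1D than in wild type. The counts were 2 of the 17 integrity pathway genes and 3 of the 10 calcineurin genes. Those 3 were PMC1 (0.94, SE 0.23), the calcineurin regulator RCN1 (0.88, SE 0.11) and CMK2 (0.58, SE 0.12), a calmodulin-dependent kinase gene. Only the RCN1 difference kept its call under every alternative.

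**Figure D4:**
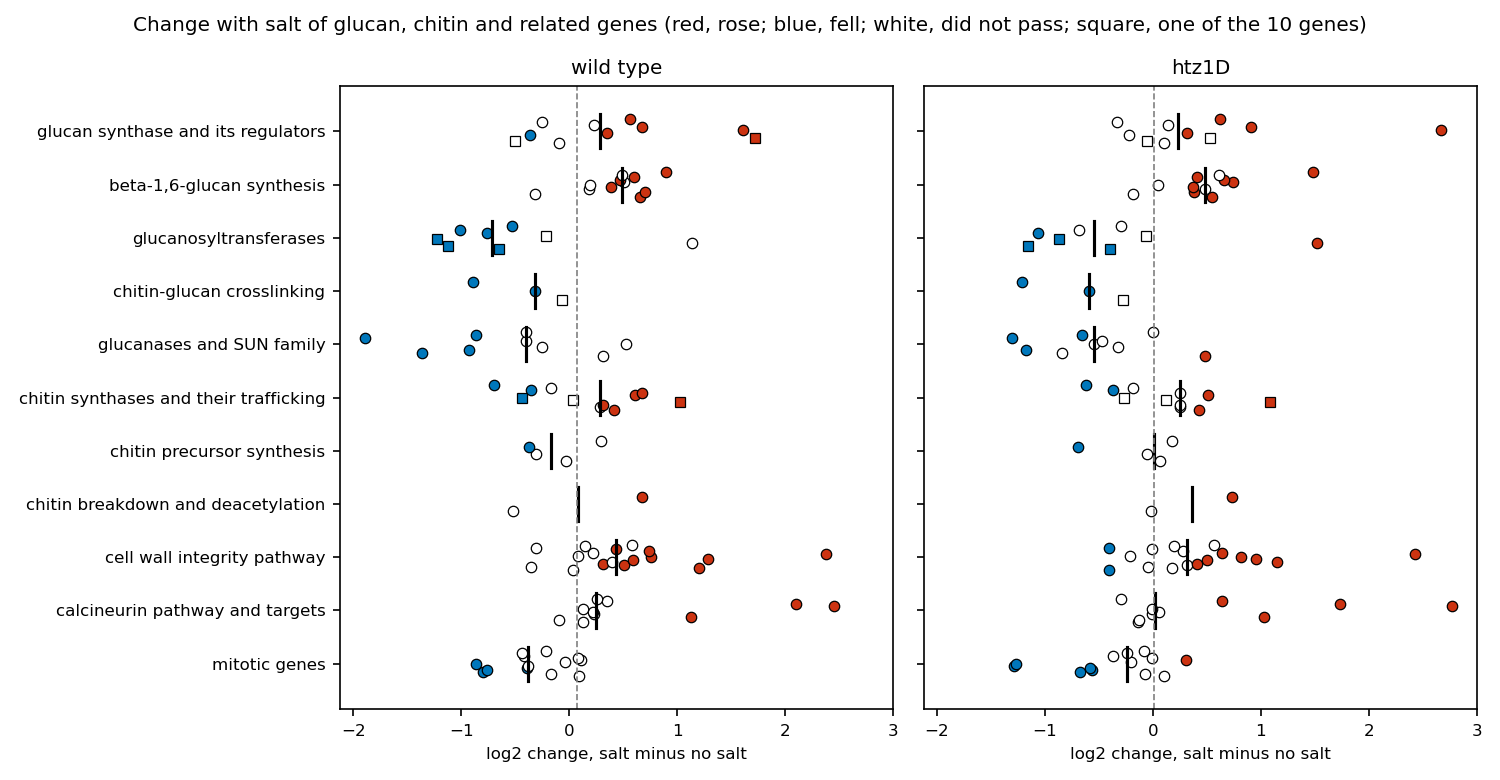
Log2 change with salt (horizontal axis) of each tested gene in 11 lists, in wild type (left) and htz1D (right). Red points rose, blue points fell, white points did not pass, squares are members of the 10 genes, black ticks are list medians and the dashed line is the median of all genes tested. Glucanosyltransferase genes lie mostly left of that line and the branching-glucan genes mostly right.

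The list counts depend on the arrays used. Over all alternatives except the replicate block, the number that rose in wild type ran from 3 to 5 for glucan synthase and regulators, 3 to 8 for the branching glucan and 5 to 10 for the integrity pathway. The number that fell ran from 3 to 6 for glucanosyltransferases and 2 to 5 for glucanases. The list medians kept their sign in wild type throughout for these 5 lists.

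The closest profiles over the 8 arrays were found by centring each gene on its own mean and taking the root mean square difference in log2 units. CHS1 lay nearest to ACH1 (0.13), an acetyl-CoA hydrolase gene, and HSP78 (0.14), a mitochondrial chaperone gene. GAS1 lay nearest to RPO31 (0.10), the largest subunit of RNA polymerase III, and to the replication gene MCM7 (0.12). GAS3 lay nearest to the lysine synthesis gene LYS2 (0.06) and to GEA1 (0.09). BGL2 lay nearest to EFT1 (0.05) and EFT2 (0.06), which encode the same elongation factor and may share probe signal. GSC2 lay nearest to HXT4 (0.25), a hexose transporter gene, and GUD1 (0.26). The measure is not scaled by how much a gene varies, so it cannot rank the 10 genes by closeness of match. The median difference from all genes was 0.88 for GSC2 and 0.40 to 0.72 for the other members. FKS1 was nearest to RPB2 and EMC1 (0.13 each), GAS5 to SNQ2 (0.05) and KAP104 (0.07), CHS2 to PMT3 and SIN3 (0.06 each), CHS3 to MKT1 (0.05) and PFK2 (0.06), and CRH1 to SEC16 and USO1 (0.08 each). Within the 10 genes, GAS1 and GAS3 were each other's closest (0.18), with 38 of the other tested genes nearer to GAS1 than GAS3 was. GSC2 and CHS1 were also each other's closest, at 0.41, although 611 of the other tested genes lay nearer to CHS1 than GSC2 did.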

How the data were processed

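Total RNA of 8 cultures was labelled with Cy3 and hybridised to single-colour Agilent yeast arrays, per the labels' protocols. Per the file headers, the deposited files hold spot intensity after background subtraction by Feature Extraction 10.7.3.1, with a grid annotated on genome build sacCer2. The authors' deposited value table holds log2 values. The submitters' processing notes name limma, and the table's background correction, scaling and centring are not given in the sources used here (column medians 10.55 to 10.57). Its columns correlated with the raw median signals of the same arrays at 0.987 to 0.997, and each matched its own array best.

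From the 12512 non-control spots per array, 86 spots marked as outliers were left out, and none was saturated. Processed intensity was divided by the array's 75th percentile, put on the log2 scale and averaged over the 2 spots of a probe. For 19 tested genes with more than 1 probe, the probe with the highest mean signal was used. Tests covered genes whose probe cleared background (well above it, per the scanner flag) in both replicates of 1 group or more. Differences were fitted with limma 3.58.1 in R 4.3.3, as 4 group means over 8 arrays (4 residual and 3.35 prior degrees of freedom), with Benjamini-Hochberg adjustment over 5393 genes. The pooled spread of all groups stands behind each test, so with 2 arrays per group the number of arrays limits the precision. The fit was tested on simulated data. Those data had independent noise on each array, unlike the same-numbered replicates here, which deviated together.

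The 5 comparisons were salt in each strain, the deletion with and without salt, and their interaction. The salt comparison and the deletion comparison without salt share the unstressed wild-type arrays, and the others share arrays likewise. Alternatives were normexp background correction (offset 50), quantile normalization, the authors' table, no filter and a stricter filter on dim probes, the mean of a gene's probes, only the arrays compared, the replicate number as a block, and each array left out in turn. Normexp was run on median signals because the files hold no mean signal. Where an array was left out, the lone array of that group was assumed to vary like the other groups.

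All 8 arrays lie on 1 slide, with wild type in one row and htz1D in the other and the salt treatments in separate columns, so position and group cannot be told apart. Locus tags matched RefSeq names (assembly R64) for 5748 of 6256 probes, which were used for names only. The 10 genes and the lists were chosen with earlier results of these data known. Tested genes named besides the 10 and HTZ1 came from up to 3 of the largest changes called in each list and comparison, relatives of the 10, and the 2 nearest profiles of each. Not every gene that met this rule is named, and counts are not given for every list. One of the gene lists is not reported here.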

Additional observations from a re-analysis of the deposited data

How the results depend on the processing

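For the 10 genes, 384 of 400 values with an array left out kept their side of the threshold, 11 lost a call and 5 gained one. Under the other alternatives 372 of 390 kept it, 8 lost a call and 10 gained one. The sign turned in 33 and 10 of these values, all of changes that passed in neither fit. The salt calls for CHS1, GAS1 and GAS3 held in both strains under all of these. With an array left out, 4 to 6 of the 10 were called for salt in wild type and 3 to 5 in htz1D, and 2284 to 3295 and 2525 to 3097 genes in all. For the deletion without salt, 738 genes were called in the reported fit, 196 under normexp, 348 with only the arrays compared and 271 to 663 with an array left out. Of the 10, none was called in the reported fit, 1 in the authors' deposited table, 1 under the stricter filter and 0 to 2 with an array left out. For the deletion with salt, 1183 genes were called, 344 under normexp and 438 to 1436 with an array left out, and of the 10, 1 was called, 0 under normexp, 0 after quantile normalization and 0 to 1 with an array left out. For the interaction, 54 genes were called, 1 under normexp, 19 in the authors' deposited table, 14 with no filter and 4 to 102 with an array left out, and none of the 10 under any of these. The changes that reversed were BIG1 (-0.05) and GAS2 (-0.46), both with salt in htz1D under normexp. The cause was not tested.

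The share of calls that were higher also moved. It was 50.2% for salt in htz1D (35.9% under normexp), 53.8% for the deletion without salt (88.3% under normexp, 64.1% with only the arrays compared) and 26.3% for the deletion with salt (46.7% in the authors' deposited table, 43.4% after quantile normalization). For the interaction it was 11.1% (31.6% in that table, 21.6% after quantile normalization). Normexp moved the median of all genes from 0.01 to -0.18 for salt in htz1D, from -0.04 to 0.11 for the deletion without salt and from -0.07 to -0.21 for the interaction.

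The labels number the replicates 1 and 2 in each group without saying what a number shares. Deviations of same-numbered arrays from their group means correlated at 0.176 to 0.422 over the 6 pairs of groups. With the replicate number as a block, 1395 genes were called for the deletion without salt, 1827 for the deletion with salt and 141 for the interaction. Of the 10 genes, 5 were then called for the deletion without salt: FKS1 (adjusted p = 0.00891), GSC2 (0.00969), CHS1 (0.0257), GAS3 (0.0282) and GAS1 (0.0346). With salt 3 were called: CHS1, GAS1 (0.02) and BGL2 (0.0403). FKS1 was also called for salt in wild type (0.00237).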
